A study of Homo sapiens with 15 samples.

Results

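The endoplasmic reticulum (ER) chaperone and unfolded protein response (UPR) genes form a set of 38 genes. They were picked by symbol, with earlier results of these data known. They comprise 9 chaperones and cochaperones, 9 folding enzymes, the secreted stress factor MANF, 9 genes of ER-associated degradation (ERAD), 4 stress sensors or their transcription factors, and 6 genes of protein translocation and signal peptide cleavage. All 38 were found by Ensembl ID among the 61248 loci of the table, and 35 of them reached 1 FPKM in at least 3 libraries, as did 14999 loci in all. FPKM scales the fragments of a gene to its length and to the depth of the library, so levels can be compared between genes. ERO1B (0.104 to 0.352 FPKM), DERL3 (0.315 to 0.772 FPKM) and ERN1 (0.482 to 1.03 FPKM) did not pass this filter and were not tested.

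Secretory and membrane proteins, growth factor receptors among them, enter the ER through the SEC61 channel, lose their signal peptide, and are folded by chaperones and disulfide-forming enzymes before they move on. When unfolded protein builds up, the sensors IRE1 (gene ERN1), ATF6 and PERK (gene EIF2AK3) start the UPR. IRE1 splices the XBP1 message and ATF6 is cut to release a transcription factor, and both raise chaperone and ERAD genes, whereas PERK slows translation and raises ATF4 and its targets.

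All libraries came from the human cell line NCI-H1975, derived from a non-small cell lung cancer and carrying a mutated EGFR. There were 3 libraries in each of 5 groups: cells treated with almonertinib, a kinase inhibitor of EGFR; cells treated with EGF, the ligand of EGFR; cells given siEGFR, a small interfering RNA against EGFR; cells given siNC, the negative-control RNA of the same kind; and cells labelled only as control. The labels name no dose, no time and no vehicle, and they do not tell separate cultures from repeated libraries of 1 culture, so the spread behind each p-value may be technical only. The question put to each comparison is how far the ER genes moved with EGFR inhibition, EGFR stimulation or a knockdown of the EGFR transcript.

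Read totals recovered from the FPKM steps ran from 18009903 to 34908302 per library. EGFR itself was at 29.9, 28.6 and 28.9 FPKM in siEGFR libraries, against 49.5, 49.4 and 49.8 FPKM in siNC libraries. The siEGFR mean was 58.8% of the siNC mean. Control libraries were at 28.0, 22.3 and 22.8 FPKM, below all siEGFR libraries. EGFR RNA in siEGFR cells was thus reduced against siNC but not against control. The mean was 16.7 FPKM with almonertinib and 25.4 with EGF. The 8 lung epithelial markers summed to between 928 and 1158 FPKM in every library, and the 5 leukocyte markers to at most 1.11 FPKM. The epithelial sum hides shifts of single markers. In siNC against control 6 of the 8 were higher and 1 lower (75% and 12.5%, against 34.4% and 31.6% of all tested genes). Their log2 fold changes ran from -0.81 to 2.43. In siEGFR against siNC 0 were higher and 4 lower (0% and 50%, against 2.27% and 3.19%). The 5 fibroblast markers were COL1A1, COL1A2, DCN, LUM and PDGFRB. They summed to 358 to 383 FPKM with almonertinib and 337 to 353 in control. Their sums were 193 to 214 with EGF, 194 to 196 in siEGFR and 138 to 146 in siNC. Of the 5, 3 passed the filter, while DCN and LUM were near 0. Whether these marker levels bear on the ER genes was not tested.

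Some libraries stood apart from the others of their group in these genes. Control 1 was the highest control library, almonertinib 3 the highest almonertinib library and EGF 2 the lowest EGF library, all together, for 22 of the 35 tested members (62.9%), against 31% of all tested genes. The opposite held for SDF2L1, CRELD2 and SYVN1, and for 17.7% of all tested genes. HSP90B1 is the clearest case among the abundant members, with 37.2 FPKM in almonertinib 3 against 21.8 and 21.6 FPKM in the other almonertinib libraries. The median SD of the members within a group, in log2 units, was 0.166 with almonertinib, 0.114 with EGF, 0.0297 in siEGFR, 0.0455 in siNC and 0.172 in control. The siRNA groups were therefore measured more tightly than the other groups.

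**Figure D1:**
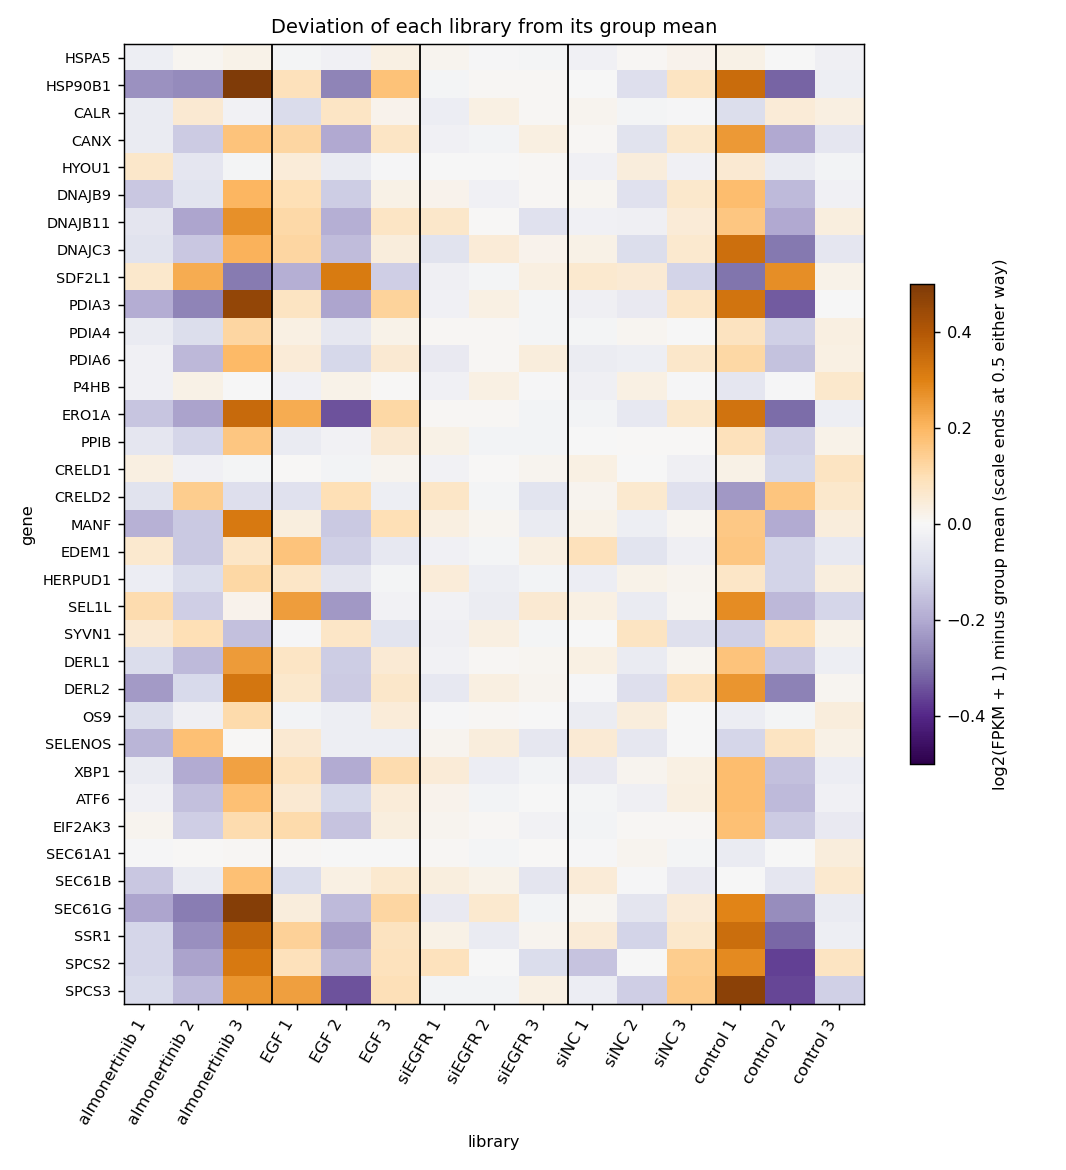
Each cell gives log2(FPKM + 1) in 1 library minus the mean of its group, for the 35 tested members (down) and the 15 libraries (across, lines between groups). Almonertinib 3 and control 1 are above, and EGF 2 and control 2 below, their group means for most members, while the siEGFR and siNC libraries stay close to theirs.

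Against control cells, EGF raised the ER genes more often than it lowered them. Past an adjusted p of 0.05 (limma, Benjamini-Hochberg over all tested genes), 15 of the 35 tested members were higher and 2 lower, which is 42.9% and 5.71%, against 22.0% and 27.3% of all tested genes. Their median log2 fold change, on the log2(FPKM + 1) scale used throughout, was 0.23, against -0.035 over all tested genes. Almonertinib moved few members against control and in both directions: 5 were higher and 5 lower (14.3% each), against 12.1% and 18.0% of all tested genes, with a median of -0.13 against -0.062. Set directly against EGF, almonertinib cells had 21 members lower and 4 higher (60% and 11.4%), against 32.6% and 30.0% of all tested genes, with a median of -0.33 against -0.034. These are levels in a population, in which fewer cells expressing a gene and less RNA per cell cannot be told apart.

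Few members passed the test between the siRNA groups. Against siNC, siEGFR had 1 member higher and 2 lower (2.86% and 5.71%), against 2.27% and 3.19% of all tested genes, with a median of 0.052 against 0.014. Fitted on the siEGFR and siNC libraries alone, 5 members were higher and 2 lower, beside 1617 and 1463 of all tested genes. The main fit shares 1 estimate of spread over the 5 groups, although the siRNA groups spread less. What this sharing did to the counts was not tested. More members passed between siNC and the cells labelled control: siNC had 16 members higher and 7 lower (45.7% and 20%), against 34.4% and 31.6% of all tested genes. In that comparison the siRNA and any handling that went with it cannot be told apart. A contrast of the almonertinib effect minus the siEGFR effect, which tests whether drug and knockdown differ, called 0 members higher and 1 lower, HYOU1, against 5.95% and 7.71% of all tested genes. At an unadjusted p under 0.05, 4 were higher and 4 lower in that contrast. No share of all tested genes was counted at an unadjusted p, so such counts, here and below, cannot be read against one. By limma-voom on the recovered reads 0 members were higher and 2 lower, beside 717 and 1324 of all tested genes. The almonertinib, EGF and siNC comparisons use the same 3 control libraries and are not independent of each other.

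**Figure D2:**
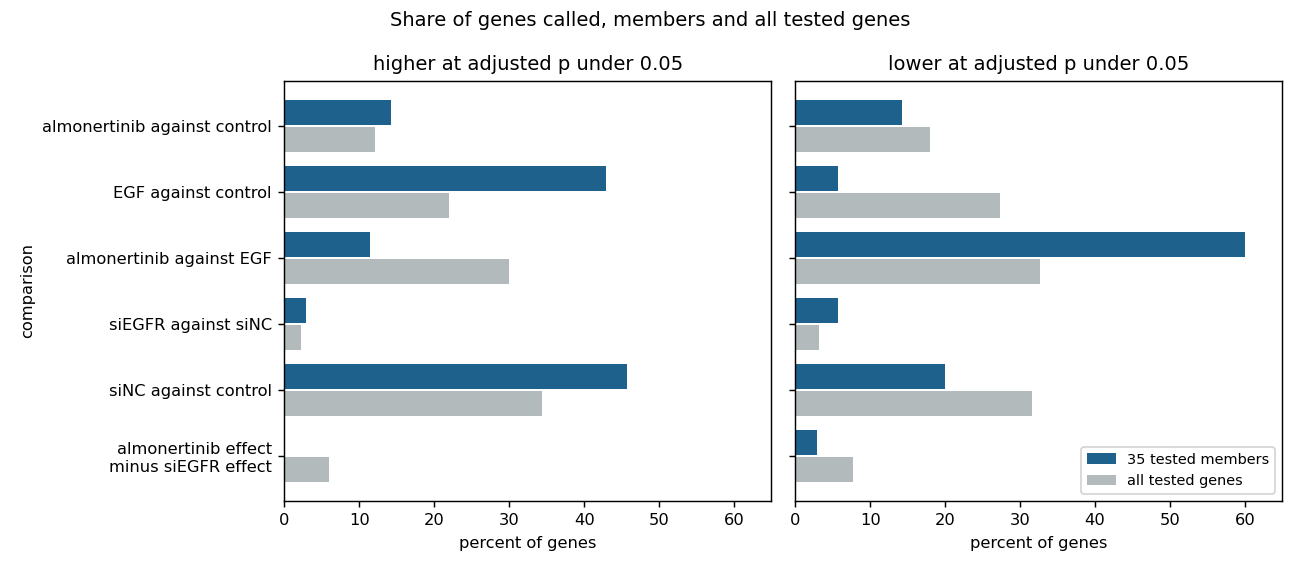
Bars give the percent of the 35 tested members (blue) and of all 14999 tested genes (grey) that were higher (left) or lower (right) at adjusted p under 0.05 in each comparison. The members exceed all genes among those raised by EGF (42.9% against 22.0%) and among those lower with almonertinib than with EGF (60% against 32.6%).

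The counts depend on a few libraries. Control 1 and almonertinib 3 were the highest libraries of their group for 25 and 26 of the 35 tested members (71.4% and 74.3%). Over all tested genes these shares were 51.5% and 47.7%. Leaving out this pair lowers both group means for most members, so the counts that follow are no independent support. EGF 2, the lowest EGF library for 28 members (80%, against 49.9%), stayed in. Without control 1 and almonertinib 3, the EGF comparison had 22 members higher and 2 lower. Almonertinib against EGF then had 5 higher and 28 lower, and almonertinib against control 3 higher and 6 lower. Over all tested genes the counts were then 4205 and 4257, 4708 and 5716, and 1587 and 2353, in the same order. In the main fit they were 3306 and 4090, 4500 and 4893, and 1817 and 2700. In the EGF comparison, leaving out control 1 alone gave 19 members higher, beside 3674 of all tested genes. Leaving out almonertinib 3 alone gave 12 members lower with almonertinib than in control, and leaving out control 2 alone gave 11. Of all tested genes, 3487 and 3634 were lower in these fits. Fitted on the 6 almonertinib and control libraries alone, HYOU1 was the only member that still passed (adjusted p = 0.0451). In that fit 399 of all tested genes were higher and 458 lower. Scaling also shifts the balance of this comparison: all tested genes split into 1817 higher and 2700 lower as deposited, 1094 and 3876 under TPM scaling and 2380 and 2067 under median-ratio scaling, with 2 and 8, and 4 and 5, of the members. In the contrast of drug and knockdown effects the same splits were 892 and 1157, 562 and 1753, and 1123 and 821 over all tested genes.

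By group means, almonertinib was lowest for 21 of the 35 tested members (39.2% of all tested genes), and EGF or siEGFR was highest for 11 members each (12.3% and 24.3% of all tested genes). The most abundant member was CALR, with a median of 527 FPKM over the libraries, followed by HSPA5 with 135 and PDIA4 with 125 FPKM. CRELD1 had the lowest median among tested members, 0.69 FPKM. Summed over all 38 genes, levels were 1500 to 1653 FPKM with almonertinib, 1740 to 1810 with EGF, 1732 to 1758 in siEGFR, 1661 to 1683 in siNC and 1478 to 1573 in control. CALR, at 473 to 591 FPKM, was the largest single term of each sum.

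The known control elements of these genes were looked up in their promoters, because members that hold the same element could be compared. Windows from 250 bases before to 50 bases after each annotated transcription start, from RefSeq on GRCh38.p14, were matched for 35 of the 38 members by symbol, all but PDIA3, DERL1 and DERL3, and for 27305 genes in all. The ER stress element (ERSE), searched as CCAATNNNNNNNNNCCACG on both strands, is the classic target of ATF6 and XBP1. It was found in 8 members (22.9%), against 25 of all 27305 genes (0.0916%). The shorter ERSE-II, searched as ATTGG, 1 base of any kind and CCACG on both strands, was found in HYOU1, SDF2L1 and HERPUD1 (8.57%), against 19 of all genes (0.0696%). The XBP1 motif UPRE, TGACGTGG, was found in HYOU1 (2.86%, against 0.927% of all genes), and the ATF4 motif CARE, TGATGCAA, in HERPUD1 (2.86%, against 1.08%). Among the further genes of these pathways read below, 0 with a window held an ERSE or ERSE-II. Their UPRE shares were 3 of 17 folding, 2 of 13 ERAD and 3 of 14 translocation genes (17.6%, 15.4% and 21.4%). For the further sensor and the PERK to ATF4 genes the UPRE counts were 0 of 10 and 0 of 11. A match is a run of letters, not a measured binding site, and the absence of one says only that these letters are not in this window.

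The ERSE, ERSE-II and CARE matches are shown for every member that holds one except CANX and ERO1B. They are written 5′ to 3′ on the strand of the gene, with the element in capitals and 5 bases on either side. PDIA6 and XBP1 also have a window at another annotated start that holds no ERSE. Positions are those of the element on GRCh38.p14. The ERSE-II matches of HYOU1 and SDF2L1, the ERSE of CALR and of CRELD2, the second ERSE of HSP90B1 and the CARE of HERPUD1 read as the reverse complement.
HSPA5 ERSE, chr9:125241391-125241409, minus strand: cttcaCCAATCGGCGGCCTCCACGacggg
HSP90B1 ERSE, chr12:103930216-103930234, plus strand: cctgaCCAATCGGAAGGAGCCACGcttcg
HSP90B1 ERSE, chr12:103930321-103930339, plus strand: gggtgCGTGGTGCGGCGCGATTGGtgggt
CALR ERSE, chr19:12938384-12938402, plus strand: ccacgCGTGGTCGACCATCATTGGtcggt
HYOU1 ERSE-II, chr11:119057380-119057390, minus strand: cgtgaCGTGGTCCAATcccag
HYOU1 ERSE-II, chr11:119057274-119057284, minus strand: tgggaCGTGGTCCAATgagta
SDF2L1 ERSE-II, chr22:21642114-21642124, plus strand: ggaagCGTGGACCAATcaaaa
PDIA6 ERSE, chr2:10812853-10812871, minus strand: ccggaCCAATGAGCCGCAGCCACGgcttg
CRELD2 ERSE, chr22:49918554-49918572, plus strand: cctctCGTGGCGAACTCGGATTGGgccat
HERPUD1 ERSE-II, chr16:56932025-56932035, plus strand: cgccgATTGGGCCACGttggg
HERPUD1 CARE, chr16:56931966-56931973, plus strand: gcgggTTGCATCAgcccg
XBP1 ERSE, chr22:28800603-28800621, minus strand: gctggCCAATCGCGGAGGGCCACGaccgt
HYOU1 holds 2 matches of ERSE-II, and the UPRE match at bases 188 to 181 before its start overlaps the first of them, at bases 185 to 175. The ERSE of HSPA5 lies 66 to 48 bases before the start. The XBP1 match lies 52 to 34 and the CRELD2 match 80 to 62 bases before the start.

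The 250 bases before the start are given for HYOU1, the member with the most matches, for HSPA5, the classic UPR target, and for SDF2L1, with the largest change among the members that hold an ERSE-II, with ERSE, ERSE-II and UPRE matches in capitals. In HYOU1 the first capitals join the UPRE and the ERSE-II that overlap.
HYOU1, chr11:119057206-119057455, minus strand: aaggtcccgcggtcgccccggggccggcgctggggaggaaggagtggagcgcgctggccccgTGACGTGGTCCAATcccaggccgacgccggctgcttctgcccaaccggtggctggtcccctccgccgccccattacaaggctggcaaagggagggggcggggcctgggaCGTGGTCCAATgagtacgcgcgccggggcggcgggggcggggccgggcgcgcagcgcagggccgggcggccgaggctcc
HSPA5, chr9:125241344-125241593, minus strand: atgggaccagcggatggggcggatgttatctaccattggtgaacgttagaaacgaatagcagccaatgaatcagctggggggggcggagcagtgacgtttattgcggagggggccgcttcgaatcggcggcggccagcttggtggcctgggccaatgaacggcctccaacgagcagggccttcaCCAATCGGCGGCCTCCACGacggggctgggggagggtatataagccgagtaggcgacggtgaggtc
SDF2L1, chr22:21642052-21642301, plus strand: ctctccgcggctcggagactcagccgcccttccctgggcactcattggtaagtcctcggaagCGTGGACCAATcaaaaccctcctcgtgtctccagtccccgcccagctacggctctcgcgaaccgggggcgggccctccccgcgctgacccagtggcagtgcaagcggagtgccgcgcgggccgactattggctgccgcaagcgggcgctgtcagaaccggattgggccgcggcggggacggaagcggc
Among the 10 tested members with an ERSE or ERSE-II, 6 were higher and 0 lower with EGF, against 8 higher and 2 lower among the 23 tested members without either element and 22.0% higher and 27.3% lower among all tested genes. With almonertinib, CALR and HERPUD1 were higher and HYOU1 lower among these 10, against 3 higher and 4 lower among the 23 without either element. Over all tested genes 12.1% were higher and 18.0% lower. In siNC against control, 4 of the 10 were higher and HERPUD1 was lower, with fold changes from -0.76 to 1.28. Of the 23 without either element 10 were higher and 6 lower, and of all tested genes 34.4% were higher and 31.6% lower.

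Of the 9 chaperones and cochaperones, 5 rose with EGF (55.6%, against 22.0% of all tested genes) and 0 fell. With almonertinib 1 rose and 1 fell (11.1% each, against 12.1% and 18.0% of all tested genes), and in siNC 3 were higher and 1 lower than in control (33.3% and 11.1%, against 34.4% and 31.6%), shares of higher genes near those of all genes. HYOU1 gave the clearest order of groups. It encodes an Hsp110-like protein that releases ADP from BiP. HYOU1 was at 24.5, 22.4 and 23.1 FPKM with almonertinib and at 42.4, 39.9 and 40.9 FPKM with EGF. It was at 45.5, 45.6 and 45.8 FPKM in siEGFR and 39.1, 40.8 and 39.1 FPKM in siNC libraries, and at 31.4, 29.3 and 29.9 FPKM in control libraries. No almonertinib library overlapped a control library, all being lower, and all EGF, siNC and siEGFR libraries were higher than control. HYOU1 fell with almonertinib (-0.36 ± 0.047, adjusted p = 0.000156) and rose with EGF (0.43 ± 0.047, adjusted p = 7.09e-06). It was higher in siNC than in control (0.38 ± 0.047, adjusted p = 1.02e-05) and a little higher still in siEGFR than in siNC (0.20 ± 0.047, adjusted p = 0.0266). That last call was lost when any 1 of the 6 siRNA libraries was left out, with an adjusted p of up to 0.117. The almonertinib effect minus the siEGFR effect was -0.56 ± 0.067 (adjusted p = 0.000212), so drug and knockdown differed for this gene.

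HSPA5 encodes BiP, the Hsp70 of the ER lumen and the usual readout of the UPR. HSPA5 was at 129, 132 and 134 FPKM with almonertinib and at 155, 153 and 159 FPKM with EGF. It was at 121, 119 and 119 FPKM in siEGFR and 136, 138 and 139 FPKM in siNC libraries, and at 138, 135 and 133 FPKM in control libraries. The EGF libraries lay above and the siEGFR libraries below all others. BiP rose with EGF (0.20 ± 0.040, adjusted p = 0.00117) and fell with siEGFR against siNC to 86.8% of it (-0.20 ± 0.040, adjusted p = 0.00831). The fall with siEGFR had an adjusted p of 0.0519 without siNC 3. With almonertinib the difference from control was -0.043 ± 0.040, adjusted p = 0.425, and the libraries overlapped. Under TPM scaling, which sets each library to the same sum, that difference passed as lower (adjusted p = 0.0266).

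SDF2L1 is a partner of BiP cochaperones that is strongly induced in ER stress. SDF2L1 was at 15, 16.9 and 11.6 FPKM with almonertinib and at 30.0, 43 and 31.5 FPKM with EGF. It was at 43.7, 44.2 and 45.6 FPKM in siEGFR and 47.4, 47.2 and 42 FPKM in siNC libraries, and at 14.6, 22.2 and 18.5 FPKM in control libraries. Control and almonertinib libraries overlapped, and all EGF, siEGFR and siNC libraries lay above them. SDF2L1 rose with EGF (0.88 ± 0.16, adjusted p = 0.000514) and was higher in siNC than in control (1.28 ± 0.16, adjusted p = 1.24e-05). DNAJB11, an ER-resident DnaJ partner of BiP, followed the same order at a lower level. DNAJB11 was at 2.11, 1.8 and 2.9 FPKM with almonertinib and at 4.94, 3.82 and 4.79 FPKM with EGF. It was at 5.86, 5.54 and 5.22 FPKM in siEGFR and 5.61, 5.59 and 5.94 FPKM in siNC libraries, and at 3.33, 2.36 and 2.96 FPKM in control libraries. It rose with EGF (0.51 ± 0.12, adjusted p = 0.00398) and was higher in siNC than in control (0.80 ± 0.12, adjusted p = 8.01e-05), without overlap in either case.

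DNAJB9, another DnaJ cochaperone and a repressor of IRE1, did not follow this order. DNAJB9 was at 6.75, 7.15 and 8.8 FPKM with almonertinib and at 8.87, 7.43 and 8.38 FPKM with EGF. It was at 6.02, 5.83 and 5.96 FPKM in siEGFR and 4.94, 4.61 and 5.18 FPKM in siNC libraries, and at 9.86, 7.5 and 8.4 FPKM in control libraries. The siNC libraries lay below all control libraries (-0.69 ± 0.10, adjusted p = 4.58e-05), while EGF and control overlapped (-0.052 ± 0.10, adjusted p = 0.699). DNAJC3, which encodes an inhibitor of PERK and BiP cochaperone, passed in none of the comparisons against control or siNC, with fold changes between -0.30 and 0.042.

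The lectin chaperones hold glycoproteins while they fold. CALR, calreticulin, was at 544, 583 and 553 FPKM with almonertinib and at 473, 519 and 513 FPKM in control. Its rise with almonertinib was small and at the edge of the threshold (0.16 ± 0.057, adjusted p = 0.0495), and it was lost in 19 of 26 alternatives, with an adjusted p of up to 0.269. EGF libraries were at 527, 591 and 568 FPKM (0.16 ± 0.057, adjusted p = 0.0288), a call lost in 7 of 26 alternatives, among them those without control 1 (adjusted p = 0.091), EGF 2 (0.108) and EGF 3 (0.0839). CANX, its membrane-bound relative, passed in no comparison against control or siNC.

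HSP90B1, the Hsp90 of the ER, shows how far single libraries decide a value. HSP90B1 was at 21.8, 21.6 and 37.2 FPKM with almonertinib and at 36.5, 28.3 and 38.8 FPKM with EGF. It was at 40.3, 40.7 and 40.7 FPKM in siEGFR and 37.2, 35.1 and 39.5 FPKM in siNC libraries, and at 34.3, 21.2 and 26.1 FPKM in control libraries. Almonertinib and control libraries each spread over most of the range, so that EGF against control did not pass (0.35 ± 0.20, adjusted p = 0.169). It did without control 1 (adjusted p = 0.0457). In siNC against control it missed the threshold (0.46 ± 0.20, adjusted p = 0.0545) although all siNC libraries lay above all control libraries.

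**Figure D3:**
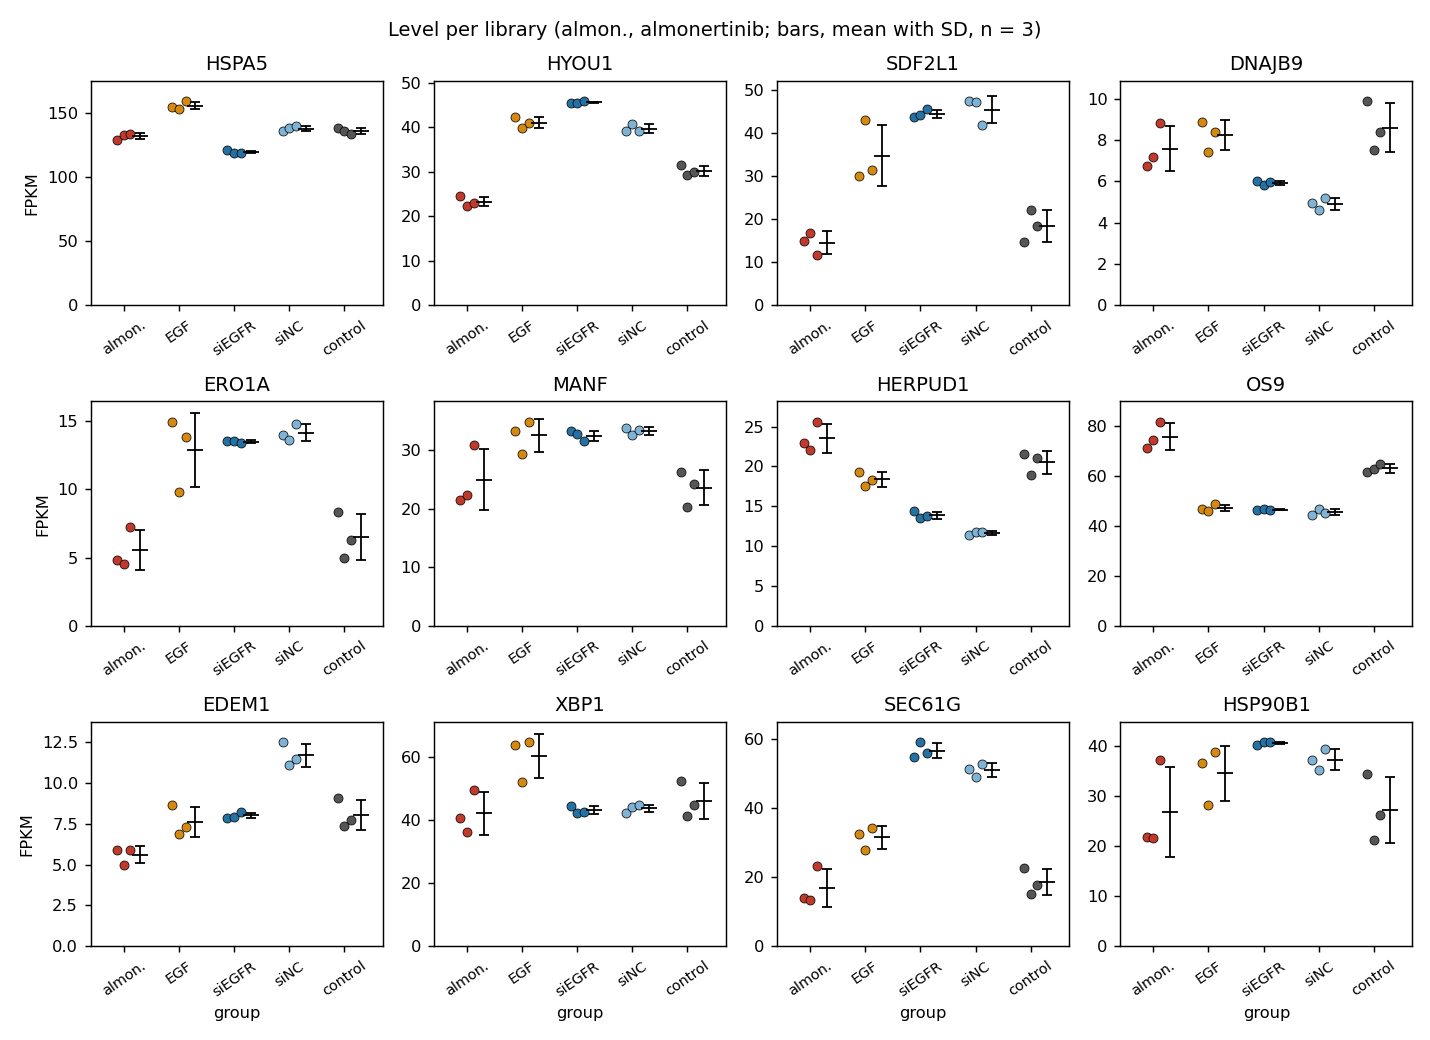
FPKM of 12 members in every library (points) with the mean and SD of each group (bars, n = 3). HYOU1, SDF2L1, ERO1A and SEC61G are low in almonertinib and control and high in EGF, siEGFR and siNC libraries, HERPUD1 and OS9 run the other way, and HSP90B1 spreads within almonertinib and control.

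Of 8 tested folding enzymes, 3 were higher and 1 lower with EGF (37.5% and 12.5%, against 22.0% and 27.3% of all tested genes). With almonertinib 2 were higher and 0 lower (25% and 0%, against 12.1% and 18.0%), and in siNC 5 were higher and 3 lower than in control (62.5% and 37.5%, against 34.4% and 31.6%). ERO1A is the oxidase that feeds disulfide formation. ERO1A was at 4.83, 4.55 and 7.21 FPKM with almonertinib and at 15, 9.8 and 13.8 FPKM with EGF. It was at 13.6, 13.5 and 13.4 FPKM in siEGFR and 14, 13.6 and 14.8 FPKM in siNC libraries, and at 8.32, 5 and 6.27 FPKM in control libraries. Control and almonertinib libraries stayed at or below 8.32 FPKM and all other libraries at or above 9.8 FPKM. ERO1A rose with EGF (0.88 ± 0.18, adjusted p = 0.00113) and was higher in siNC than in control (1.03 ± 0.18, adjusted p = 0.000209). Almonertinib against EGF gave -1.09 ± 0.18, adjusted p = 0.000148.

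Of the protein disulfide isomerases, which form and reshuffle disulfides, PDIA6 and PDIA4 moved alike. PDIA6 shares 25.2% of its exon bases with ATP6V1C2 on the other strand. PDIA6 was at 32.9, 29.6 and 38.3 FPKM with almonertinib and at 54.2, 48.7 and 54.5 FPKM with EGF. It was at 51.7, 53.5 and 54.9 FPKM in siEGFR and 50.4, 50.7 and 54.4 FPKM in siNC libraries, and at 41.9, 34.6 and 39.3 FPKM in control libraries. EGF and siNC libraries lay above all control libraries for PDIA6 (0.44 ± 0.090, adjusted p = 0.00137 with EGF). With almonertinib its difference from control was -0.20 ± 0.090, adjusted p = 0.113, and it passed as lower without almonertinib 3 (adjusted p = 0.0178) and without control 2 (0.0366). PDIA4 was at 95.2, 92.5 and 107 FPKM with almonertinib and at 126, 119 and 125 FPKM with EGF. It was at 135, 136 and 134 FPKM in siEGFR and 135, 137 and 136 FPKM in siNC libraries, and at 112, 97.3 and 108 FPKM in control libraries. PDIA4 rose with EGF (0.22 ± 0.063, adjusted p = 0.0103, but 0.0645 in a fit of the EGF and control libraries alone) and was higher in siNC than in control (0.36 ± 0.063, adjusted p = 0.00019). PDIA3, the isomerase that works with the lectin chaperones, was higher in siNC than in control (0.50 ± 0.18, adjusted p = 0.0297), but not past the threshold without control 2 (adjusted p = 0.136), control 3 (0.0637) or any 1 of the siNC libraries (0.0523 to 0.0806). Its pseudogene copies reached 24.2 FPKM, so its level depends on how shared reads were assigned.

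P4HB, the most studied isomerase, went the other way with the drug. It was at 69.0, 71.4 and 70.0 FPKM with almonertinib, against 58.3, 60.4 and 63.5 FPKM in control. The groups did not overlap, and P4HB rose (0.21 ± 0.043, adjusted p = 0.0039). It was also higher with almonertinib than with EGF (0.25 ± 0.043, adjusted p = 0.000223).

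CRELD1, a membrane protein with isomerase activity, had each group mean on the other side of the control mean from ERO1A, at a low level. It passed the filter only through its almonertinib and control libraries. CRELD1 was at 1.66, 1.56 and 1.59 FPKM with almonertinib and at 0.69, 0.67 and 0.705 FPKM with EGF. It was at 0.349, 0.365 and 0.377 FPKM in siEGFR and 0.424, 0.394 and 0.371 FPKM in siNC libraries, and at 1.28, 1.09 and 1.37 FPKM in control libraries. Every almonertinib library lay above and every EGF, siEGFR and siNC library below all control libraries. Because the filter kept CRELD1 through the groups where it was high, its calls in the filtered fit, which stand in the counts above, are no independent result. In a fit of all loci with any reads, with no such filter, its log2 fold change was -0.41 with EGF (adjusted p = 0.000125), -0.69 in siNC (adjusted p = 7.77e-07) and 0.21 with almonertinib (adjusted p = 0.0285), all against control. The almonertinib value had an adjusted p of 0.0579 without control 2 and 0.0581 without almonertinib 1. At these levels the added 1 shrinks fold changes, and the EGF mean was 55.1% and the siNC mean 31.8% of the control mean. Its paralog CRELD2, an ER stress target, passed against control only in siNC (0.25 ± 0.096, adjusted p = 0.0366), and that call was lost without control 1 (adjusted p = 0.162), siNC 1 (0.0833) or siNC 2 (0.107). PPIB, the prolyl isomerase cyclophilin B, shares 27.2% of its exon bases with SNX22 on the other strand and was lower in siNC than in control (-0.18 ± 0.070, adjusted p = 0.0362), a call lost in 9 of 26 alternatives, with an adjusted p of up to 0.123.

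MANF is a folding factor of the ER that is secreted under stress. MANF was at 21.5, 22.3 and 30.9 FPKM with almonertinib and at 33.3, 29.4 and 34.8 FPKM with EGF. It was at 33.2, 32.7 and 31.5 FPKM in siEGFR and 33.7, 32.5 and 33.4 FPKM in siNC libraries, and at 26.3, 20.3 and 24.1 FPKM in control libraries. EGF libraries lay above all control libraries, and almonertinib 3 above the other almonertinib libraries. MANF rose with EGF (0.45 ± 0.12, adjusted p = 0.00732) and was higher in siNC than in control (0.48 ± 0.12, adjusted p = 0.00318). It was lower with almonertinib than with EGF (-0.38 ± 0.12, adjusted p = 0.0138), though not past the threshold without almonertinib 1, almonertinib 2 or EGF 3 (adjusted p of 0.0681, 0.0594 and 0.0553).

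ERAD, which draws misfolded proteins out of the ER for the proteasome, had 8 tested members. Of these, 2 were higher and 2 lower with almonertinib (25% each, against 12.1% and 18.0% of all tested genes) and 2 higher and 1 lower with EGF (25% and 12.5%, against 22.0% and 27.3%). In siNC 3 were higher and 3 lower than in control (37.5% each, against 34.4% and 31.6%). EDEM1, a mannosidase-like lectin that hands over misfolded glycoproteins, was the member that fell with both the drug and the knockdown. EDEM1 was at 5.87, 5 and 5.92 FPKM with almonertinib and at 8.63, 6.89 and 7.29 FPKM with EGF. It was at 7.88, 7.94 and 8.21 FPKM in siEGFR and 12.5, 11.1 and 11.4 FPKM in siNC libraries, and at 9.09, 7.36 and 7.71 FPKM in control libraries. Neither the almonertinib and control nor the siEGFR and siNC libraries overlapped. EDEM1 fell with almonertinib (-0.46 ± 0.089, adjusted p = 0.00269) and with siEGFR against siNC (-0.49 ± 0.089, adjusted p = 0.00548). The siNC libraries stood above control (0.49 ± 0.089, adjusted p = 0.000326), and the siEGFR libraries lay within the range of the control libraries. The difference between the drug and knockdown effects was 0.037 ± 0.13, adjusted p = 0.864.

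HERPUD1, a membrane scaffold of the ERAD complex with both an ERSE-II and a CARE match, ran opposite to most chaperones. HERPUD1 was at 22.9, 22 and 25.6 FPKM with almonertinib and at 19.3, 17.5 and 18.2 FPKM with EGF. It was at 14.4, 13.6 and 13.7 FPKM in siEGFR and 11.4, 11.8 and 11.8 FPKM in siNC libraries, and at 21.6, 18.9 and 21 FPKM in control libraries. All siNC libraries lay below all control libraries (-0.76 ± 0.065, adjusted p = 2.75e-07), and almonertinib libraries lay above them (0.19 ± 0.065, adjusted p = 0.0423). The almonertinib call was lost in 17 of 26 alternatives, with an adjusted p of up to 0.266. In siEGFR all libraries were above siNC, and the difference just missed the threshold (0.23 ± 0.065, adjusted p = 0.0561), which 9 of 26 alternatives passed.

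OS9, a lectin of the same complex, gave a larger difference between drug and ligand. OS9 was at 71, 74.2 and 81.5 FPKM with almonertinib and at 46.5, 46 and 48.5 FPKM with EGF. It was at 46.1, 46.5 and 46.3 FPKM in siEGFR and 44.2, 46.6 and 45.2 FPKM in siNC libraries, and at 61.4, 62.5 and 64.7 FPKM in control libraries. Almonertinib libraries lay above and EGF libraries below all control libraries. OS9 rose with almonertinib (0.26 ± 0.052, adjusted p = 0.00296), fell with EGF (-0.41 ± 0.052, adjusted p = 2.4e-05) and was lower in siNC than in control (-0.46 ± 0.052, adjusted p = 4.09e-06). Almonertinib against EGF gave 0.67 ± 0.052, adjusted p = 1.3e-07. An antisense gene shares 13.5% of its exon bases.

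The ubiquitin ligase core of ERAD also split. SYVN1, the ligase, was at 12.9, 13.7 and 12.2 FPKM in siNC, against 17.7, 20.8 and 19.6 FPKM in control (-0.55 ± 0.076, adjusted p = 2.87e-05), and overlapped control with EGF and almonertinib. SEL1L, its adaptor, was at 17.3, 14.6 and 16.2 FPKM with almonertinib, against 28.5, 20.6 and 21.6 FPKM in control, and fell (-0.52 ± 0.12, adjusted p = 0.00849). DERL1, a derlin of the retrotranslocation channel, was at 7.33, 6.24 and 7.2 FPKM with EGF and 8.64, 8.18 and 8.52 FPKM in siNC, against 6.11, 4.73 and 5.19 FPKM in control. Both were higher (0.32 ± 0.10, adjusted p = 0.0196 with EGF and 0.58 ± 0.10, adjusted p = 0.000267 in siNC), and the EGF call was lost without control 2, control 3, EGF 1 or EGF 3 (adjusted p of 0.0568 to 0.0783). SELENOS, a selenoprotein that ties the ligase to the cytosolic segregase, rose with EGF (0.45 ± 0.081, adjusted p = 0.000437), and its EGF libraries did not overlap control.

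Among the sensors, XBP1 was the 1 that rose with EGF. XBP1 was at 40.6, 36.3 and 49.5 FPKM with almonertinib and at 63.7, 52.2 and 64.7 FPKM with EGF. It was at 44.6, 42.1 and 42.6 FPKM in siEGFR and 42.3, 44.1 and 44.6 FPKM in siNC libraries, and at 52.4, 41.2 and 44.8 FPKM in control libraries. The EGF and control libraries overlapped at EGF 2 and control 1, which were at 52.2 and 52.4 FPKM, and the call (0.38 ± 0.11, adjusted p = 0.0145) was lost without control 2, EGF 1 or EGF 3 (adjusted p of 0.0605, 0.0531 and 0.0618). The table gives the level of the gene and not its spliced form, through which IRE1 acts. ATF6 was at 5.33, 4.77 and 6.26 FPKM with almonertinib, against 7.8, 5.88 and 6.63 FPKM in control, and fell (-0.27 ± 0.093, adjusted p = 0.0457) although the libraries overlapped. That call was lost in 15 of 26 alternatives, with an adjusted p of up to 0.231. EIF2AK3, PERK, was at 1.68, 1.44 and 1.86 FPKM with almonertinib and 2.33, 1.78 and 2.16 FPKM with EGF, against 2.43, 1.78 and 1.94 FPKM in control, and passed in no comparison against control or siNC. ERN1, IRE1, was at 0.705, 0.564 and 0.482 FPKM with almonertinib and 1.03, 0.843 and 0.877 FPKM with EGF, against 0.817, 0.758 and 0.844 FPKM in control, below the filter.

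Of the 6 translocation genes, the SEC61 subunits SEC61A1, SEC61B and SEC61G rose with EGF (50%, against 22.0% of all tested genes) and 0 fell (27.3% of all tested genes). SSR1, SPCS2 and SPCS3 did not pass, with fold changes of 0.32, 0.33 and 0.34. Almonertinib had all 6 lower than EGF (100%, against 32.6% of all tested genes). The SPCS2 call in that comparison (adjusted p = 0.0204) was lost in 6 of 26 alternatives, with an adjusted p of up to 0.0877. The other calls were kept in all 26. SEC61G, the gamma subunit of the channel, lies near EGFR on chromosome 7 and was the member furthest above control in siNC. SEC61G was at 13.9, 13.2 and 23.2 FPKM with almonertinib and at 32.3, 27.9 and 34.3 FPKM with EGF. It was at 54.6, 58.9 and 55.9 FPKM in siEGFR and 51.3, 48.8 and 52.7 FPKM in siNC libraries, and at 22.5, 15.1 and 17.7 FPKM in control libraries. All siEGFR and siNC libraries lay above all EGF libraries, which lay above all control libraries. SEC61G rose with EGF (0.75 ± 0.18, adjusted p = 0.00313) and was higher in siNC than in control (1.44 ± 0.18, adjusted p = 9.94e-06). In siEGFR against siNC its difference was 0.15 ± 0.18, adjusted p = 0.791, while EGFR itself was reduced.

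SEC61A1, the pore subunit, changed less, with libraries of each group close together. SEC61A1 was at 105, 106 and 106 FPKM with almonertinib and at 122, 122 and 122 FPKM with EGF. It was at 124, 123 and 123 FPKM in siEGFR and 118, 119 and 117 FPKM in siNC libraries, and at 98.9, 102 and 105 FPKM in control libraries. EGF and siNC libraries lay above all almonertinib and control libraries (0.26 ± 0.038, adjusted p = 9.52e-05 with EGF and 0.22 ± 0.038, adjusted p = 0.000261 in siNC). SEC61B, the beta subunit, was at 65.9, 71.7 and 73.1 FPKM with EGF, against 49.8, 47.9 and 52.1 FPKM in control (0.48 ± 0.074, adjusted p = 0.000124). SPCS3, a signal peptidase subunit, was at 9.07, 8.47 and 10.5 FPKM in siNC, against 7.83, 3.96 and 4.85 FPKM in control (0.70 ± 0.20, adjusted p = 0.00687). It passed with EGF only without control 1 (adjusted p = 0.0116), since control 1 was at 7.83 FPKM and the other controls at 3.96 and 4.85 FPKM. SSR1, of the translocon-associated complex, was lower with almonertinib than in control (-0.52 ± 0.17, adjusted p = 0.0345) with overlapping libraries, and the call was lost without control 1, control 3, almonertinib 1 or almonertinib 2 (adjusted p of 0.0648 to 0.148). SPCS2 overlapped between all groups compared with control, and its pseudogene copies reached 14.4 FPKM.

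**Figure D4:**
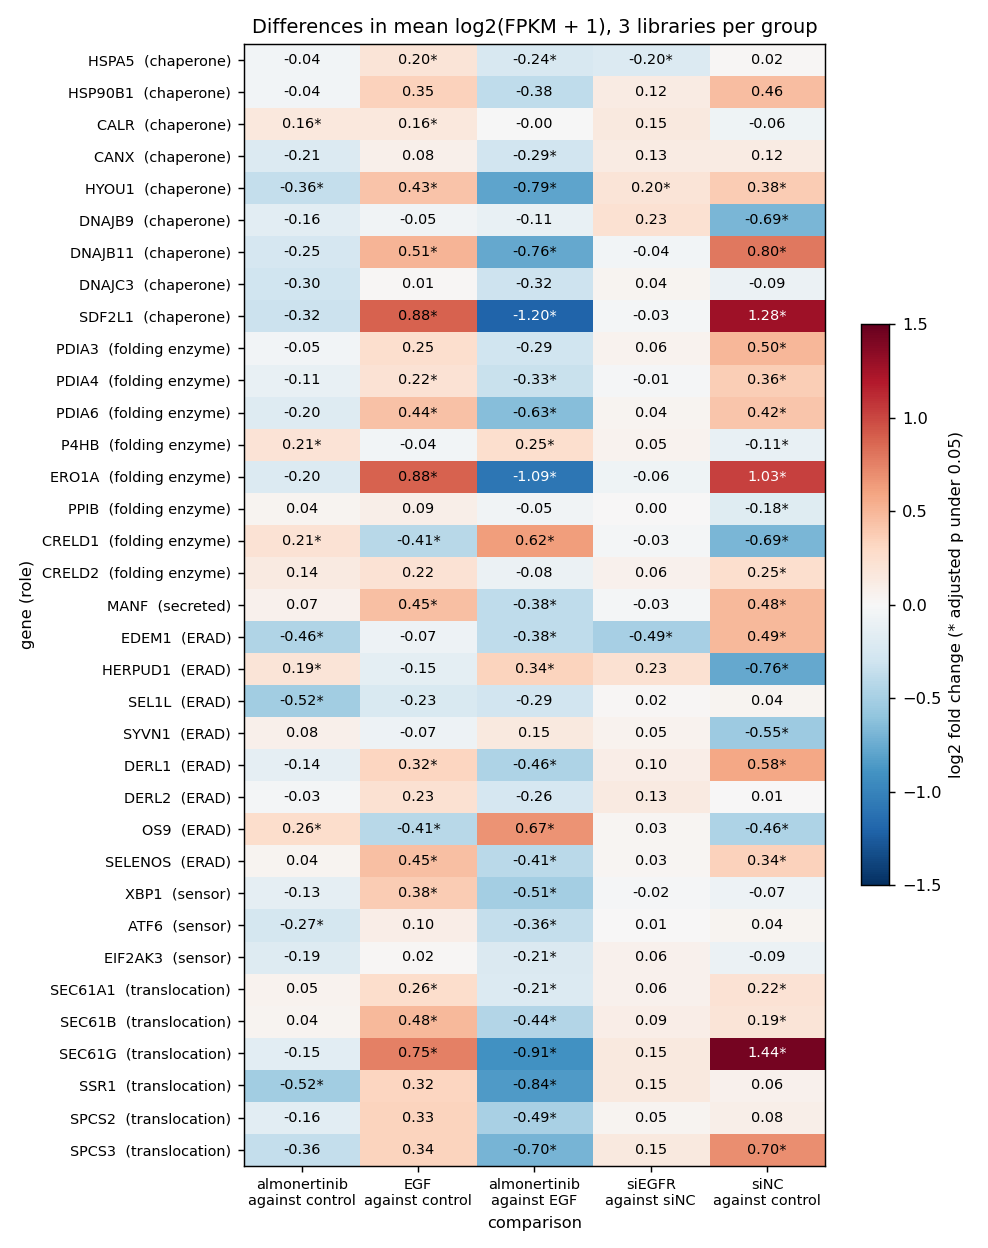
Log2 fold change of the 35 tested members (down, with their role) in 5 comparisons (across), red for higher and blue for lower in the group named first, with an asterisk at adjusted p under 0.05. Red prevails for EGF against control and blue for almonertinib against EGF, where only P4HB, CRELD1, HERPUD1 and OS9 passed as higher, and siEGFR against siNC is close to 0 for most members.

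Further genes of the same pathways, from lists of 79 genes in all, were read beside the members. Of 18 tested folding genes outside the set, 4 rose and 0 fell with EGF (22.2% and 0%, against 22.0% and 27.3% of all tested genes), and 3 rose and 3 fell with almonertinib (16.7% each, against 12.1% and 18.0%). At an unadjusted p under 0.05 the EGF counts were 5 and 0. SIL1, an exchange factor of BiP like HYOU1, was at 10.1, 10.2 and 9.68 FPKM in siNC, against 16.5, 19.6 and 18.5 FPKM in control (-0.80 ± 0.067, adjusted p = 2.71e-07), the opposite direction to HYOU1. FKBP11, a prolyl isomerase, was higher in siNC than in control (0.42 ± 0.051, adjusted p = 9.43e-06) and rose with almonertinib (0.22 ± 0.051, adjusted p = 0.00654). GANAB, the glucosidase II subunit that trims glycans for the lectin chaperones, was the 1 gene of this list that moved with the knockdown. It was at 182, 189.8 and 191 FPKM in siEGFR, against 139, 144 and 140.4 FPKM in siNC (0.41 ± 0.054, adjusted p = 0.000611), and the control libraries were at 183, 196 and 189 FPKM.

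Of 17 further ERAD genes, 7 rose and 4 fell with EGF (41.2% and 23.5%, against 22.0% and 27.3% of all tested genes), and 1 rose and 5 fell with almonertinib (5.88% and 29.4%, against 12.1% and 18.0%). Set directly against EGF, almonertinib had 4 of them higher and 9 lower (23.5% and 52.9%, against 30.0% and 32.6%). UBE2G2, a ubiquitin-conjugating enzyme of ERAD, was at 6.66, 6.1 and 6.28 FPKM with almonertinib and 13.3, 11.9 and 12.1 FPKM with EGF, against 9.37, 7.5 and 8.77 FPKM in control. It fell with almonertinib (-0.37 ± 0.069, adjusted p = 0.00167) and rose with EGF (0.49 ± 0.069, adjusted p = 5.42e-05). VCP, the segregase that pulls substrates out, rose with EGF (0.42 ± 0.063, adjusted p = 0.000112), and MAN1B1, a mannosidase, fell with it (-0.27 ± 0.075, adjusted p = 0.00848). Of 19 further translocation genes, 7 rose and 0 fell with EGF (36.8% and 0%, against 22.0% and 27.3% of all tested genes), and 0 rose and 6 fell with almonertinib (0% and 31.6%, against 12.1% and 18.0%). Almonertinib had 2 of them higher and 11 lower than EGF (10.5% and 57.9%, against 30.0% and 32.6%). Unadjusted, the counts against control were 8 and 0 with EGF and 2 and 8 with almonertinib. RPN1, an oligosaccharyltransferase subunit, was at 65.8, 63.4 and 66.6 FPKM with almonertinib and 109, 113 and 111 FPKM with EGF, against 74.7, 77.4 and 78.1 FPKM in control. Its groups did not overlap, and it fell with the drug (-0.23 ± 0.044, adjusted p = 0.00224) and rose with the ligand (0.53 ± 0.044, adjusted p = 6.25e-07). SSR3 and SRPRB, of the translocon-associated complex and the signal recognition particle receptor, also fell with the drug and rose with the ligand (-0.34 and -0.39 with almonertinib, 0.42 and 0.48 with EGF), though the almonertinib and control libraries of SRPRB overlapped. Neither list had a gene past the threshold with siEGFR against siNC, where the unadjusted p was under 0.05 for 1 of 17 and 2 of 19 genes.

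Genes that sense or relay ER stress outside the set gave 0 rises and 5 falls among 10 tested with almonertinib (0% and 50%, against 12.1% and 18.0% of all tested genes), and 4 rises and 2 falls with EGF (40% and 20%, against 22.0% and 27.3%). Unadjusted, the almonertinib counts were 1 and 5. ATF6B, the paralog of ATF6, was at 18.8, 19.1 and 19.2 FPKM with EGF, against 25.7, 25.7 and 25.5 FPKM in control (-0.41 ± 0.046, adjusted p = 7.5e-06). MBTPS1, the protease that cuts ATF6, was lower than control with almonertinib (-0.15 ± 0.050, adjusted p = 0.0432), EGF (-0.24 ± 0.050, adjusted p = 0.00118) and siNC (-0.48 ± 0.050, adjusted p = 1.76e-06). CREB3L1, an ER-bound transcription factor, was at 28.3, 26.1 and 26.4 FPKM in siEGFR, against 20.2, 19.2 and 20.1 FPKM in siNC (0.43 ± 0.052, adjusted p = 0.000333), and was also higher in siNC than in control (0.69 ± 0.052, adjusted p = 1.03e-07).

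Of 10 tested genes of the PERK to ATF4 arm, 4 rose and 0 fell with almonertinib (40% and 0%, against 12.1% and 18.0% of all tested genes). With EGF 4 were higher and 3 lower (40% and 30%, against 22.0% and 27.3%), and in siNC 7 were higher and 2 lower than in control (70% and 20%, against 34.4% and 31.6%). With siEGFR against siNC 0 passed in either direction. At an unadjusted p under 0.05 the almonertinib counts were again 4 and 0, and 2 of the 10 passed with siEGFR against siNC. The drug effect minus the knockdown effect was higher for 4 of the 10 and lower for 0 (40% and 0%, against 5.95% and 7.71% of all tested genes). PPP1R15A, the phosphatase subunit that restarts translation, was at 24.3, 27.5 and 28.4 FPKM with almonertinib and 15.5, 14.9 and 15.2 FPKM with EGF, against 19.4, 19 and 19.7 FPKM in control. It rose with the drug (0.44 ± 0.057, adjusted p = 0.000147) and fell with the ligand (-0.33 ± 0.057, adjusted p = 0.000352), without overlap. The 3 other genes that rose with almonertinib are named after their values were seen. ATF4, the transcription factor of the arm, was at 146, 144 and 159 FPKM, against 107, 112 and 115 FPKM in control (0.42 ± 0.055, adjusted p = 0.000174). DDIT3, CHOP, was at 10.7, 10.9 and 14.6 FPKM, against 6.85, 7.04 and 7.18 FPKM in control (0.69 ± 0.087, adjusted p = 0.000128), and NUPR1 at 15, 18.1 and 22.1 FPKM, against 7.8, 6.63 and 7.3 FPKM in control (1.22 ± 0.11, adjusted p = 1.14e-05).

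TRIB3, a pseudokinase, was at 16.6, 18 and 16 FPKM with almonertinib and 39.7, 43.6 and 41.1 FPKM with EGF, against 15.6, 19.1 and 18.7 FPKM in control. It rose with EGF (1.18 ± 0.072, adjusted p = 3.66e-08), and with almonertinib its difference from control was -0.067 ± 0.072, adjusted p = 0.498. CHAC1, which degrades glutathione, was at 2.68, 3.26 and 2.55 FPKM with EGF, against 0.901, 0.974 and 0.948 FPKM in control. With almonertinib it was at 0.678, 0.944 and 0.774 FPKM. It passed the filter only through its EGF, siEGFR and siNC libraries, so its differences from control are given as levels with no test, although its EGF call stands in the count. The 4 genes of this arm counted as higher with EGF included ATF4, TRIB3 and CHAC1. The 3 that fell were DDIT3 (-0.40 ± 0.087, adjusted p = 0.00176), PPP1R15A and NUPR1 (-1.02 ± 0.11, adjusted p = 6.51e-06).

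**Figure D5:**
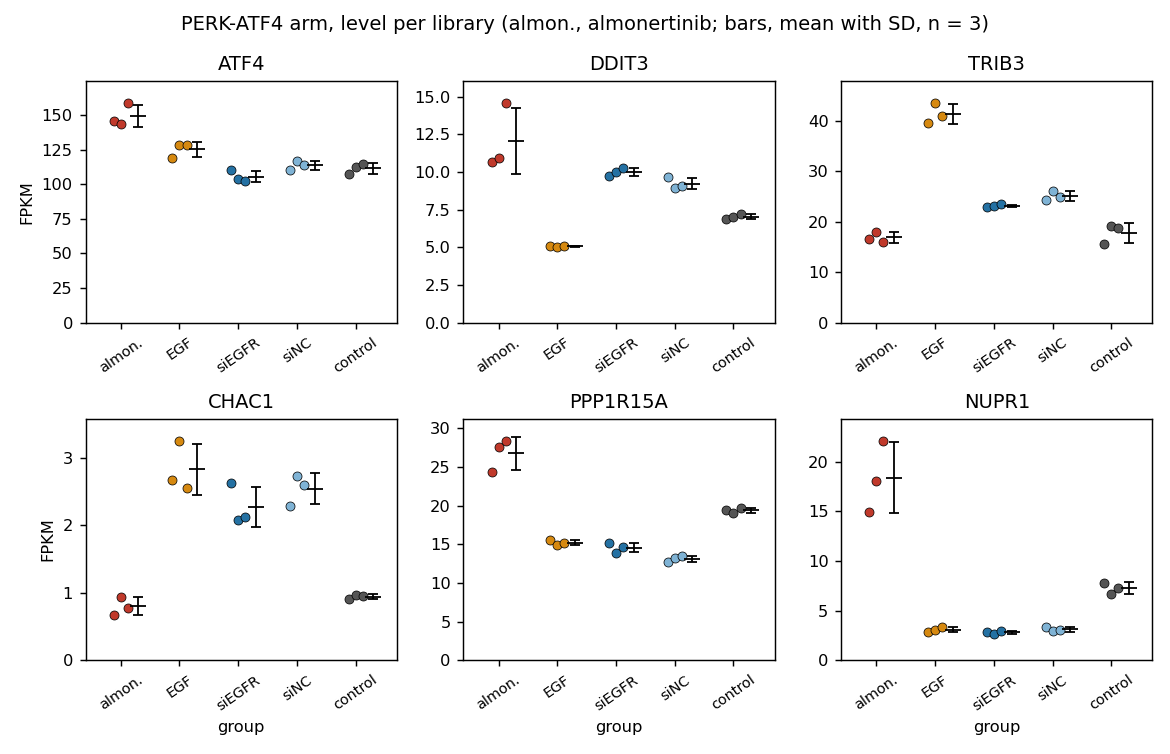
FPKM of 6 genes of the PERK to ATF4 arm in every library (points) with the mean and SD of each group (bars, n = 3). DDIT3, PPP1R15A and NUPR1 are high in almonertinib and low in EGF libraries, while TRIB3 and CHAC1 are high in EGF libraries.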

How the data were processed

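The 15 libraries, 3 per group, were analysed from the FPKM values that the authors deposited for 61248 loci. The tools named by the submitters' processing notes are HISAT2, featureCounts and DESeq2, with hg19 as the build and no versions. Whether counting used strand is not given in the sources used here. Symbols came from a list of gene names by Ensembl ID (60463 loci), and exon overlaps from GENCODE v29.

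Because the FPKM were not rounded, each is a whole number of reads times the worth of 1 read in that gene. All positive values (100.000%) gave whole reads within 0.01, and the totals were 18009903 to 34908302 reads. The worth of 1 read depends on gene length and depth, so a test on log values was the main test.

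Loci with at least 1 FPKM in at least 3 libraries were kept (14999). The test was limma 3.58.1 (R 4.3.3) on log2(FPKM + 1), with 1 coefficient per group, an intensity trend, robust moderation and 10 residual degrees of freedom. Tests were two-sided, with Benjamini-Hochberg adjustment over all tested loci within a comparison, and "rose", "fell" and "changed" refer to an adjusted p under 0.05. The added 1 understates the change of genes at a few FPKM. The fit was also run on simulated data with known changes in the EGF libraries only. Each simulated gene had the same spread in all groups, so that run does not bear on the unequal spread seen here.

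The members and lists were chosen with earlier results of these data known. Values in every library are given for up to 4 members per role and 3 genes per further list with the smallest adjusted p, and for the sensors. Further members shown this way, and genes said to be so, were named after their values were seen. The 26 alternatives changed pseudocount, filter, scaling, libraries fitted, variance trend, replicate block, threshold or test (limma-voom on recovered reads), or left out libraries. Promoter windows were searched in Python 3.11.15 with pandas 2.3.3 and numpy 2.4.6, figures were drawn with matplotlib 3.10.9, and R read its input with the package data.table, version 1.17.8.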

Additional observations from a re-analysis of the deposited data

How the results depend on the processing

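Over 26 alternatives no member reversed its direction where called. Counts of members higher and lower are given for each setting that moved them by over 1.5 times, beside 5 and 5 for almonertinib against control. There they were 3 and 3 with no filter, 2 and 8 under TPM scaling, 0 and 1 in a fit of the compared groups alone, 2 and 3 at an adjusted p under 0.01, 3 and 5 with no intensity trend, and 3 and 6 without control 1 and almonertinib 3. All tested genes moved too, from 1817 and 2700. In the same order they were 1497 and 1961 of 40824, 1094 and 3876, 399 and 458, 937 and 1329, 1794 and 2681, and 1587 and 2353. Leaving out 1 library at a time gave 2 to 5 higher and 3 to 12 lower, the most without almonertinib 3 (12) and control 2 (11). Over all tested genes this gave 1230 to 2090 higher and 1623 to 3634 lower. For EGF against control (15 and 2), 1 was lower with at least 5 FPKM, beside 2105 of 8204 tested genes. Leaving out 1 library gave 12 to 19 higher and 2 to 3 lower, beside 2767 to 3674 and 3497 to 4311 of all tested genes.

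For siEGFR against siNC (1 and 2), higher members numbered 2 with at least 5 FPKM, 0 under TPM scaling and at an adjusted p under 0.01, 5 in the compared groups alone and 3 without control 1 and almonertinib 3. Among all tested genes, with 340 higher in the main fit, these settings gave 220 of 8204, 315, 131, 1617 and 802. Leaving out 1 library gave 0 to 2 higher and 1 to 2 lower, beside 152 to 486 and 287 to 601 of all tested genes. For the almonertinib effect minus the siEGFR effect (0 and 1), the counts were 1 and 2 with at least 5 FPKM, 0 and 3 under TPM scaling, 3 and 1 under median-ratio scaling, 0 and 2 in the compared groups alone, 1 and 1 with no intensity trend, 0 and 2 by limma-voom on recovered reads, and 0 and 4 without control 1 and almonertinib 3. All tested genes, at 892 and 1157 in the main fit, moved as well. In the same order they were 664 and 937 of 8204, 562 and 1753, 1123 and 821, 788 and 1047, 900 and 1126, 717 and 1324, and 1083 and 1632. Leaving out 1 library gave 0 to 1 higher and 1 to 6 lower, beside 607 to 1210 and 731 to 1819 of all tested genes. TPM scaling moved the median of all tested genes in this contrast from -0.073 to -0.18. For all of these the cause was not tested.

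With the replicate number as a block, the counts of members were 5 and 6 for almonertinib, 16 and 3 for EGF, 2 and 2 for siEGFR, 17 and 7 for siNC, 5 and 23 for almonertinib against EGF, and 1 and 4 for the difference of effects under the replicate block. All tested genes were then at 2110 and 3504, 3596 and 4444, 432 and 604, 5426 and 4926, 4677 and 5254, and 1132 and 1850. Same-numbered libraries did not deviate together throughout (correlations from -0.169 to 0.597). The labels do not say what a number shares. With 3 libraries per group these mixed correlations cannot decide whether the numbers pair the libraries. A count of siNC against control or of almonertinib against EGF moved by no more than 1.5 times in any setting. Depth and 3 libraries per group limit calls on members at a few FPKM and on those that spread in control and almonertinib libraries.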
